A study of Sus scrofa with 12 samples.

Results

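EGR1, EGR2 and EGR3 of the early growth response family and NR4A2 and NR4A3 of the NR4A family of orphan nuclear receptors were followed in the messenger RNA of pig intervertebral disc after a session of repeated manual loading of the spine. The genes were chosen by symbol from a list of 7, the 4 EGR and the 3 NR4A genes. Of these, 5 were found among the 22198 genes of the count table, and EGR4 and NR4A1 were not analysed here. The tissue was the central ventral sector of the annulus fibrosus, the fibrous ring of the disc, between lumbar vertebrae L3 and L4. Hyperloaded tissue gave 6 libraries from 4 pigs that had manual thrusts on both sides of vertebra L3 during 4 h, at an interval of 1 min in 2 pigs and of 2 min in the other 2. Control tissue gave 6 libraries from 6 pigs that were anesthetized in the same way and were not loaded. All pigs were Duroc cross (Large White × Landrace) animals of both sexes, 3 to 4 months old, under ketamine-based induction and isoflurane. The 2 extra Hyperloaded libraries were powdered and extracted apart from tissue of the same 4 pigs, and the labels do not say which libraries share a pig, so p-values over the libraries are too small to that extent.

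Both families are immediate-early genes. Their transcription starts from transcription factors that are already in the cell when a growth factor, a stretch or another signal arrives, and their messages are short-lived. EGR proteins bind GC-rich DNA through zinc fingers and are held in check by the NAB corepressors. NR4A proteins bind DNA as nuclear receptors that need no known hormone, on a response element called the NBRE. EGR1 is known from tendon and vessel wall as a gene that answers mechanical strain. EGR2 is known for Schwann cell myelination, EGR3 for muscle spindles and lymphocytes, NR4A2 for dopamine neurons and inflamed joints, and NR4A3 for vessel wall and muscle. Serum response factor (SRF) switches on EGR genes from a short AT-rich element, the CArG box, and CREB switches on many immediate-early genes from the cyclic AMP response element (CRE).

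The DNA around the starts of the genes is shown first, for the response elements that lie in it. All sequence was read from RefSeq's copy of Sscrofa11.1, the build the reads were mapped to, and is written 5′ to 3′ on the strand of the gene. A box with the same 10 letters lay near a start of EGR1, EGR2 and EGR3, and in each gene a CRE core, TGACG or its reverse complement CGTCA, followed it after 4 or 7 bases. Capitals mark the CArG box and that core.
EGR1, chr2:140441326-140441355, plus strand, inside the annotated first exon: cttcCCATATATGGccatgtaCGTCAcgac
EGR2, chr14:66288943-66288972, minus strand, between its 2 annotated starts and outside every annotated exon: cagtCCATATATGGgcagTGACGtcacggg
EGR3, chr14:6948935-6948964, minus strand, upstream of every annotated start: ctgtCCATATATGGgcagctaCGTCAcgga
Within 1000 bases on either side of the outermost annotated start, 19 of 19553 protein-coding genes (0.0972%) held these 10 letters, searched on both strands. In 3 of the 19, a CRE core lay within 20 bases of the box, and they were EGR1, EGR3 and EBF3. The box of EGR2 lies near its inner start and is outside that count. EGR1 had 5 CArG boxes of any spelling within 1000 bases of its start, all in its annotated first exon, and was the only one of the 19553 genes (0.00511%) with 4 or more. EGR2 had 2 boxes within 1000 bases of its inner start, and EGR3 had 1. At least 1 box was found in 9.74% of genes.
Another box of EGR1 and the other box of EGR2 are shown for the variation in their letters, with the box in capitals.
EGR1, chr2:140440976-140441005, plus strand: cccggaaacgCCATATAAGGagcaggaagg
EGR2, chr14:66289246-66289275, minus strand: cggatcttcgCCTTTTTTGGaaagtcccgg

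CRE sequence lay near starts of the NR4A genes, as it did in the EGR genes. The core beside the EGR2 box belongs to a full CRE, TGACGTCA, and EGR1 had a further TGACG core whose first base is at -61 from its start. At least 1 core was found in 24.3% of windows from 250 bases before to 50 after the outermost start of a gene. NR4A3 had 4 TGACG cores between 250 bases before and 50 after its outermost start, counted on both strands, a number reached by 71 of 19556 protein-coding genes (0.363%). NR4A2 has 7 annotated starts, of which 5 form a cluster in the middle of the locus. A full CRE, TGACGTCA, lay in that cluster, where it overlaps an annotated exon, and the window at the outermost start of NR4A2 had none. A full CRE was found in the same window at the outermost start of 2.26% of genes. That share is for 1 start per gene, so it is not a like rate for the 7 starts searched in NR4A2. The full CRE holds a TGACG core on each strand, so these counts overlap. Capitals mark TGACG cores on either strand.
NR4A3, chr1:241569787-241569836, plus strand, upstream of every annotated start: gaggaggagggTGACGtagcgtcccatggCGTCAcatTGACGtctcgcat
NR4A2, chr15:63495420-63495448, minus strand, the full CRE: tgccctgctcgTGACGTCAggtcggaaat
NR4A2, chr15:63495332-63495358, minus strand, further cores: ggccgcTGACGcgcgcTGACGcgcgga
NR4A3 had no CArG box within 1000 bases of any annotated start, and NR4A2 had 1, near its innermost start alone. The EGR site GCGTGGGCG and the NBRE core AAAGGTCA were not in the 300-base windows at any annotated start of the 5 genes, against 0.931% and 0.992% of all genes. The EGR site GCGGGGGCG was in the window of EGR1 and in 6.68% of all windows. A match of letters describes the sequence, and binding was not measured.

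**Figure D1:**
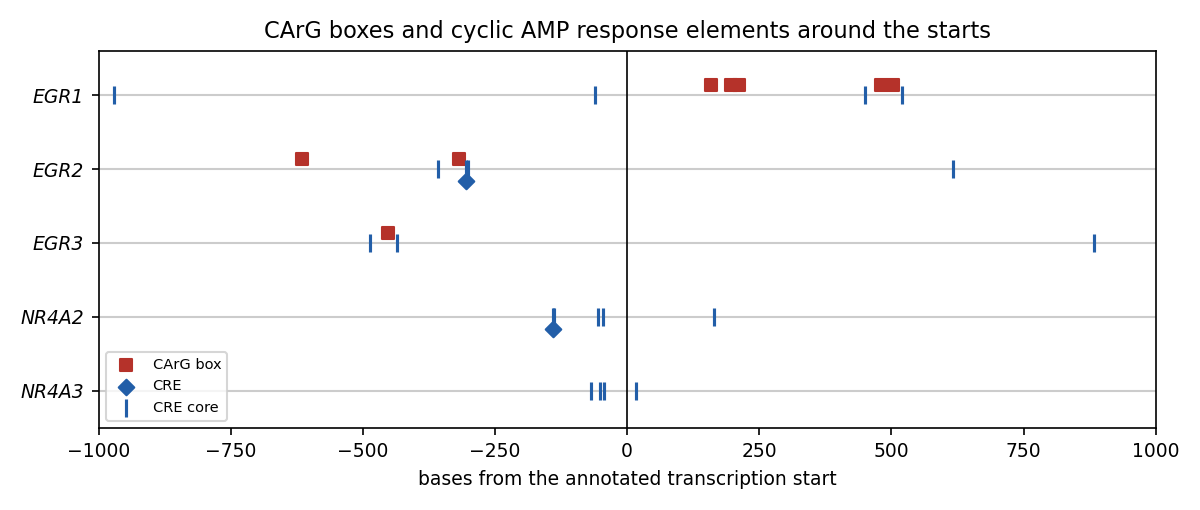
Positions of CArG boxes (red squares), full CREs (blue diamonds) and TGACG cores on either strand (blue ticks) in bases from an annotated transcription start at 0, for each gene. EGR2 is drawn from its inner start and NR4A2 from the middle start of its cluster. EGR1 has 5 CArG boxes downstream of its annotated start, EGR2 has 2 and EGR3 has 1 upstream, and the 4 NR4A3 cores lie close to the start.

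Levels are in CPM, counts set against the size of each library after scaling by trimmed means (TMM), and a log2 fold-change is Hyperloaded over Control. Totals ran between 12483998 and 19298022 expected counts in Hyperloaded libraries and between 12519251 and 24896924 in Control libraries. The sum of 6 tendon and outer annulus markers was 68050 to 257600 CPM in Hyperloaded libraries and 59740 to 253200 CPM in Control libraries and was mostly COL1A2, which ran between 61590 and 236600 CPM in Hyperloaded libraries and between 37380 and 224000 CPM in Control libraries. Of these 6 markers 3 rose by edgeR, where 10.8% of all tested genes rose. In 2 of the 3 every Hyperloaded library was above every Control, as in 3.81% of tested genes. The part of these 6 markers in the results for EGR1 was not tested. Markers of several other cell types moved with the groups or with single libraries. Counts of higher and lower markers are calls of the edgeR test described below, where 10.8% of 12597 tested genes rose and 8.44% fell. Without a minimum of 10 counts throughout a group, 7.53% of 19019 genes rose and 4.85% fell. Skeletal muscle markers summed to between 25.5 and 36720 CPM in Hyperloaded libraries and between 8.21 and 182.5 CPM in Control libraries, and 6 of 6 were higher. Some of these 6 reached 10 counts throughout the Hyperloaded libraries alone and were tested for that reason. Tested without that minimum, 6 of 6 were higher as well. Macrophage and monocyte markers summed to between 204.7 and 374.3 CPM in Hyperloaded libraries and between 35.5 and 202.8 CPM in Control libraries (10 of 12 higher). Some of these 12 also reached 10 counts throughout the Hyperloaded libraries alone, and without that minimum 11 of 14 were higher. Chondrocyte markers summed to between 6401 and 168200 CPM in Hyperloaded libraries and between 139400 and 709300 CPM in Control libraries (3 of 9 lower). At an unadjusted p under 0.05 by edgeR, 7 of the 9 were lower and 0 higher, and their median log2 fold-change was -1.92. Endothelial markers summed to between 464.3 and 733.0 CPM in Hyperloaded libraries and between 616.0 and 969.5 CPM in Control libraries (4 of 8 lower). Of these 4, 2 lay wholly below every Control, as did 2.98% of tested genes. Of the T and NK cell markers, 2 had at least 10 counts throughout a group, which was Hyperloaded alone, and these 2 were higher. Tested without that minimum, 2 of 8 were higher. Smooth muscle and pericyte sums overlapped between the groups, at 587.9 to 1232 CPM in Hyperloaded libraries and 623.1 to 1343 CPM in Control libraries (1 of 7 higher, 1 lower). Fewer cells of a type and less RNA per cell cannot be told apart in whole tissue.

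The EGR and NR4A genes were higher in Hyperloaded than in Control annulus, and the difference passed the test for EGR1, EGR2, EGR3 and NR4A3. NR4A2 had the same direction of difference and missed the threshold of 0.05 on the adjusted p (0.0509). The test was the quasi-likelihood test of edgeR, adjusted by Benjamini-Hochberg across the whole table. Only genes that reached 10 counts throughout the libraries of a group were tested. Of the 4 members that did so, 3 passed and all 3 rose, where 10.8% of all 12597 tested genes rose and 8.44% fell. EGR3 missed that minimum with 9 counts in a Hyperloaded library and was tested in a fit without one, in which 7.53% of 19019 genes rose and 4.85% fell. The 4 genes with enough counts reached the minimum in Control libraries as well as in Hyperloaded ones. EGR1, EGR2, EGR3 and NR4A3 are in tables that the study drew from these same libraries, so their direction here is not independent evidence.

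EGR1 (ENSSSCG00000014336, chr2:140440829-140445302, plus strand) encodes the zinc finger factor that gives the family its name. It had 86.7 CPM in the lowest Hyperloaded library, a median of 250.0 and 477.8 in the highest, against 14.2, 19.4 and 87.9 CPM in Control libraries. In the order of replicates 1 to 6, it had 435.3, 125.6, 477.8, 86.7, 337.0 and 162.9 CPM in Hyperloaded libraries, against 18.5, 16.8, 20.4, 14.2, 87.9 and 32.4 CPM in Control libraries. The groups overlapped by a narrow margin, since Hyperloaded replicate 4 lay just under Control replicate 5, and 5 of 6 Hyperloaded libraries were above every Control. The means were 270.9 ± 167.9 CPM in Hyperloaded tissue and 31.7 ± 28.2 CPM in Control tissue (SD, n = 6 libraries each). The log2 fold-change was 3.10 ± 0.57 (SE, adjusted p = 0.00726 by edgeR), and it stayed past the threshold under all 22 alternative fits, with values between 2.50 and 3.73.

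EGR2 (ENSSSCG00000010224, chr14:66280665-66291308, minus strand), also known as Krox20, drives myelin genes in Schwann cells. It had 4.35 CPM in the lowest Hyperloaded library, a median of 8.78 and 14.4 in the highest, against 0.566, 0.885 and 2.46 CPM in Control libraries. By replicate 1 to 6 the levels were 9.06, 6.43, 14.4, 4.35, 9.97 and 8.51 CPM in Hyperloaded libraries, against 0.680, 0.587, 1.09, 0.566, 2.46 and 1.73 CPM in Control libraries. Every Hyperloaded library was above every Control library, a pattern seen in 3.81% of the genes past the count minimum, while 2.98% had every Hyperloaded library below every Control. EGR2 averaged 8.79 ± 3.42 CPM in Hyperloaded tissue and 1.19 ± 0.77 CPM in Control tissue (SD, n = 6 each), with a log2 fold-change of 2.93 ± 0.40 (SE, adjusted p = 0.00320 by edgeR). Its spread between Hyperloaded libraries was the smallest of the 5 genes on the log2 CPM scale (SD 0.58, against 0.73 to 1.36 for the others). All 22 alternative fits kept the call, between 2.73 and 3.24.

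EGR3 (ENSSSCG00000009630, chr14:6943184-6948507, minus strand), a factor of muscle spindles and of lymphocyte tolerance, was near the floor of detection in Control tissue. Control libraries had 1, 2, 7, 3, 5 and 4 counts in replicates 1 to 6, and Hyperloaded libraries had 17, 11, 30, 9, 19 and 36 counts. In CPM the Hyperloaded libraries ran from 0.548 through a median of 1.33 to 1.91, against 0.0378, 0.187 and 0.473 in Control libraries. The groups did not overlap, which was so for 2.88% of genes with any count, and the lowest Hyperloaded libraries (replicates 2 and 4) lay close above Control replicate 5. The means were 1.22 ± 0.60 CPM in Hyperloaded tissue and 0.236 ± 0.175 CPM in Control tissue (SD, n = 6 each). The log2 fold-change was 2.42 ± 0.54 (SE, adjusted p = 0.0184 by edgeR with no count minimum). The call was kept in 19 of 21 alternative fits and was lost without the 3 libraries whose raw reads were not given (2.24, adjusted p = 0.0688 by edgeR) and without Hyperloaded replicates 2, 3 and 6 (2.24, adjusted p = 0.116). The libraries without raw reads were Control replicate 6 and Hyperloaded replicates 1 and 3. Between them, those 2 Hyperloaded libraries held the highest Hyperloaded value of each of the 5 genes.

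NR4A2 (ENSSSCG00000015871, chr15:63487051-63506249, minus strand), or Nurr1, is the receptor of dopamine neurons and is raised by prostaglandin signals in joints. Its levels by replicate 1 to 6 were 457.9, 27.5, 181.3, 164.6, 165.3 and 78.0 CPM in Hyperloaded libraries, against 12.8, 12.9, 16.7, 9.85, 113.0 and 63.1 CPM in Control libraries. The medians were 165.0 CPM in Hyperloaded libraries and 14.8 CPM in Control libraries. The groups overlapped, since Hyperloaded replicate 2 was under Control replicates 5 and 6, Hyperloaded replicate 6 was under Control replicate 5, and 4 of 6 Hyperloaded libraries were above every Control. NR4A2 averaged 179.1 ± 149.2 CPM in Hyperloaded tissue and 38.1 ± 41.9 CPM in Control tissue (SD, n = 6 each), and the highest library was 16.6 times the lowest within Hyperloaded and 11.5 times within Control. The log2 fold-change was 2.24 ± 0.74 (SE, adjusted p = 0.0509 by edgeR). It passed in 5 of 22 alternative fits, among them those without Hyperloaded replicate 2 (2.46, adjusted p = 0.0342 by edgeR) and without Control replicate 5 (2.96, adjusted p = 0.0222 by edgeR).

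NR4A3 (ENSSSCG00000005385, chr1:241569867-241611735, plus strand), or NOR1, is known from vessel wall and exercised muscle. It had 6.88 CPM in the lowest Hyperloaded library, a median of 24.5 and 50.1 in the highest, against 1.65, 2.21 and 9.09 CPM in Control libraries. By replicate 1 to 6 the levels were 50.1, 6.88, 25.1, 28.8, 19.6 and 23.8 CPM in Hyperloaded libraries, against 1.70, 1.65, 2.66, 1.75, 9.09 and 5.90 CPM in Control libraries. Hyperloaded replicate 2 lay between Control replicates 5 and 6, and the other 5 Hyperloaded libraries were above every Control. The means were 25.7 ± 14.1 CPM in Hyperloaded tissue and 3.79 ± 3.06 CPM in Control tissue (SD, n = 6 each). The log2 fold-change was 2.79 ± 0.53 (SE, adjusted p = 0.00773 by edgeR) and stayed past the threshold in all 22 alternative fits, between 2.49 and 3.47.

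**Figure D2:**
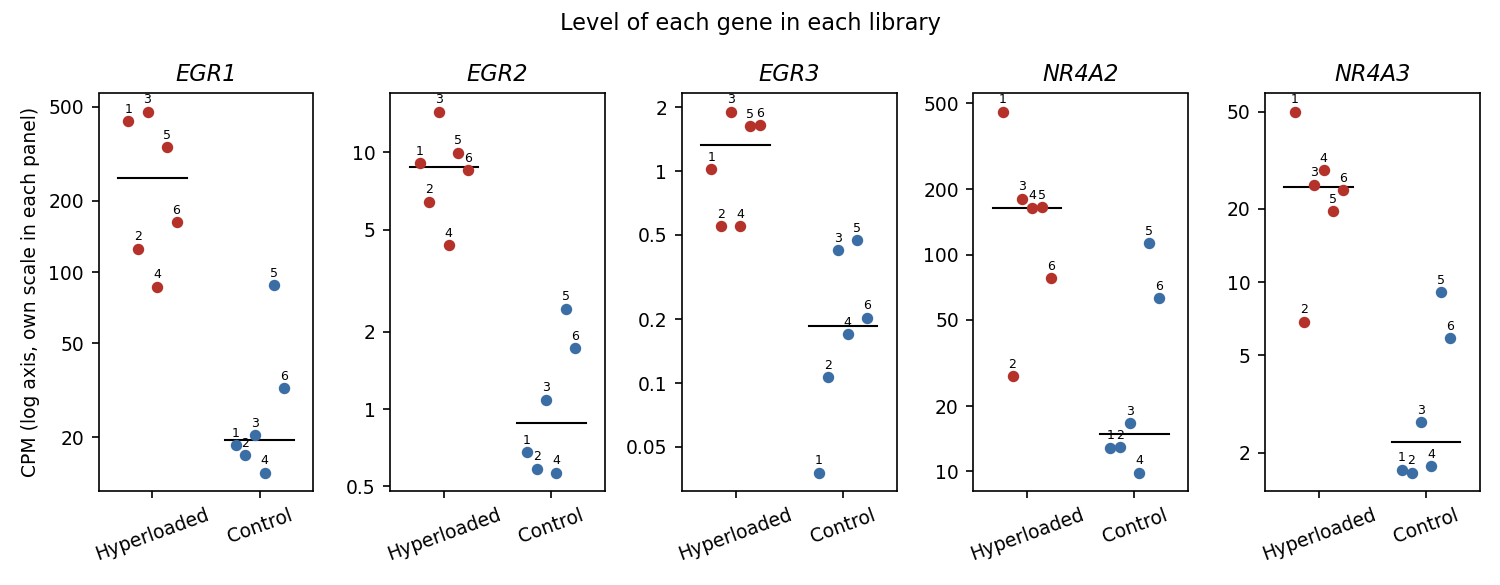
Level of each gene in CPM (log axis, a scale of its own in each panel) in the 6 Hyperloaded libraries (red, left) and the 6 Control libraries (blue, right), with the replicate number beside each point and the group median as a line. EGR2 and EGR3 do not overlap between the groups, and Control replicate 5 is the highest Control in all 5 panels.

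**Figure D3:**
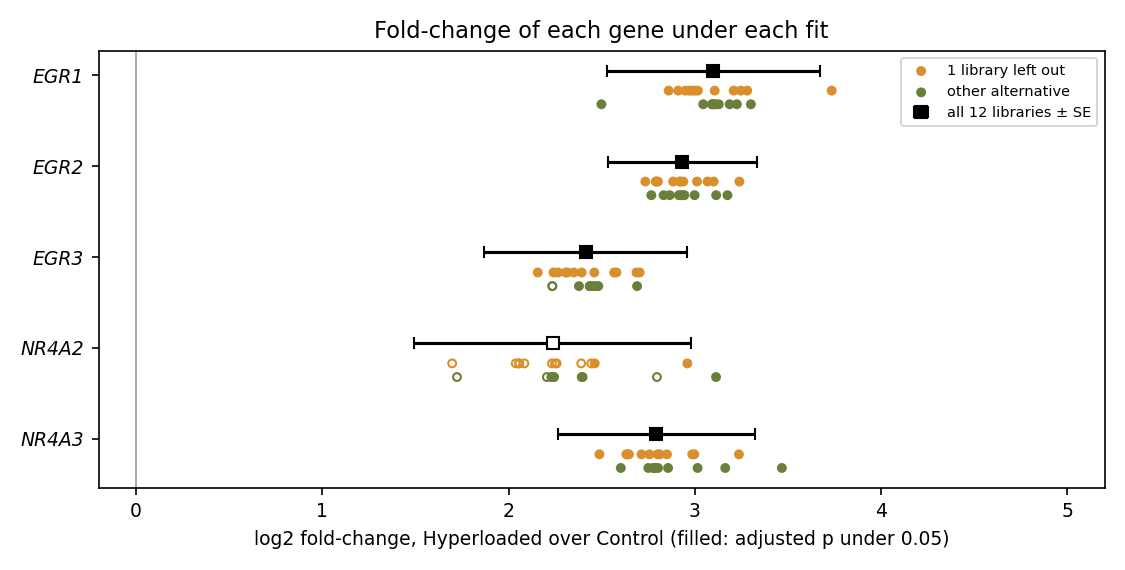
The log2 fold-change of Hyperloaded over Control for each gene with all 12 libraries (black square, with SE), with 1 library left out (orange) and under the other alternatives (green), filled where the adjusted p was under 0.05. All values lie above 0, and most of the open points belong to NR4A2.

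The families ranked in the same order in both groups when levels were set per kilobase of the longest RefSeq transcript. In Hyperloaded tissue the mean was 72.0 CPM per kilobase for EGR1, 39.3 for NR4A2, 4.45 for NR4A3, 1.31 for EGR2 and 0.302 for EGR3. In Control tissue the mean was 8.42 CPM per kilobase for EGR1, 8.35 for NR4A2, 0.657 for NR4A3, 0.176 for EGR2 and 0.0583 for EGR3. The ranges of neighbours in this order overlapped between libraries, EGR1 and NR4A2 included, except for EGR2 above EGR3 in Hyperloaded tissue and NR4A2 above NR4A3 in Control tissue. The lengths are those of RefSeq and were not used in the counting.

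Single libraries held high or low ranks across several of the genes. Control replicate 5 was the highest Control for all 5 genes, and Control replicate 6 was the next for 4 of them. Among Hyperloaded libraries, replicate 3 was highest for the 3 EGR genes and replicate 1 for both NR4A genes, and the lowest was replicate 2 for 3 genes and replicate 4 for the other 2. Over the 6 Control libraries, log2 CPM of the 10 pairs of genes correlated with Pearson's r between 0.60 and 0.99 (median 0.94). Of the 10, 6 pairs passed an exact permutation test of r over pairings after Benjamini-Hochberg adjustment, all of them without EGR3. For EGR1 and EGR2, r was 0.93 (exact permutation p = 0.00139, adjusted p = 0.00926, n = 6) and Spearman's rho was 1.00 (exact permutation p = 0.00278, adjusted p = 0.0278), the only pair whose rho passed. For each pair, the 2 Control libraries farthest from the median of its first gene were then left out. These were replicates 5 and 6, or 1 and 5 where EGR3 came first. In that setting r ran between 0.16 and 0.96 over the pairs (median 0.74), so the closeness of several pairs rests on the libraries left out. Over the 6 Hyperloaded libraries, which share pigs, r was 0.90 for EGR1 and EGR2, 0.93 for NR4A2 and NR4A3, and 0.19 for EGR2 and NR4A3.

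Ratios within a library are free of the scaling between libraries. The log2 ratio of EGR1 over EGR2 was 4.74 ± 0.56 in Hyperloaded libraries and 4.48 ± 0.37 in Control libraries (SD, n = 6 each), a difference of 0.27 (2-sided exact permutation p = 0.359). NR4A2 over NR4A3 stood at 2.55 ± 0.60 in Hyperloaded libraries and 2.96 ± 0.46 in Control libraries, a difference of -0.41 (exact permutation p = 0.227, adjusted p = 0.303). Ratios to EGR3, which had few counts, passed with the prior count of 2 that was added before taking logs, and the calls were lost with a smaller prior and with most single libraries left out (kept in 3 of 14 settings for EGR1 over EGR3 and in 4 of 14 for EGR2 over EGR3). EGR1 over EGR3 differed by 1.19 between the groups (exact permutation adjusted p = 0.0433 over 4 pairs) with that prior and by 0.76 (exact permutation adjusted p = 0.234) with a prior of 0.5. EGR2 over EGR3 differed by 0.93 (exact permutation adjusted p = 0.0433) and, with the smaller prior, by 0.60 (exact permutation adjusted p = 0.234).

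Marker sums were set beside the genes library by library. Hyperloaded replicate 2, which had the largest skeletal muscle sum (36720 CPM), had the lowest NR4A2 and NR4A3 of its group. Its EGR3 was the lowest by a narrow margin (0.548 CPM, against 0.552 CPM in replicate 4). Replicate 1, with the smallest muscle sum of its group (25.5 CPM), had 435.3 CPM of EGR1 and the highest NR4A2 and NR4A3. Other libraries did not follow this order. Replicate 4 (muscle sum 111.8 CPM) had the lowest EGR1 and EGR2, and replicate 3 (1017 CPM) had the highest EGR1, EGR2 and EGR3. Without Hyperloaded replicates 2, 3 and 6, which had the 3 largest muscle sums, EGR1 (log2 fold-change 3.19, adjusted p = 0.0458 by edgeR), EGR2 (2.77, adjusted p = 0.0251) and NR4A3 (3.16, adjusted p = 0.0296) passed. Control replicate 1 had the highest macrophage and monocyte sum among Controls (202.8 CPM, close to 204.7 CPM in Hyperloaded replicate 5), and its EGR1 was 18.5 CPM, against 337.0 CPM in that Hyperloaded library. The same Control and Hyperloaded libraries differed in chondrocyte (242700 and 119700 CPM), tendon and outer annulus (103000 and 236200 CPM) and erythroid sums (13.1 and 370.1 CPM).

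Chondrocyte, tendon and blood transcripts set Control replicates 5 and 6 apart from the other Controls. Their chondrocyte sums were the lowest of the group (187900 and 139400 CPM) and their erythroid sums the highest (423.6 and 704.6 CPM, against 7.75 to 48.6 CPM in the other Controls). Their tendon and outer annulus sums were also the highest (253200 and 211900 CPM, against 59740 to 103000 CPM in the other Controls). Hyperloaded replicates 1 and 5 had like sums for chondrocytes (168200 and 119700 CPM), for erythroid cells (301.1 and 370.1 CPM) and for tendon and outer annulus (257600 and 236200 CPM). The tendon and outer annulus sum was mostly COL1A2. In 2 of its 6 markers every Hyperloaded library was above every Control, so a like sum is not a like level of each marker. Other sums were not alike. Macrophage and monocyte markers had 330.6 and 204.7 CPM in Hyperloaded replicates 1 and 5, against 47.25 and 65.76 CPM in Control replicates 5 and 6. T and NK cell markers had 12.0 and 9.20 CPM, against 2.08 and 4.73 CPM. Between these libraries, picked after their values were seen and with no test, EGR1 had 435.3 and 337.0 CPM in Hyperloaded replicates 1 and 5, against 87.9 and 32.4 CPM in Control replicates 5 and 6. EGR2 had 9.06 and 9.97 CPM in the same Hyperloaded libraries, against 2.46 and 1.73 CPM in those Controls. NR4A3 had 50.1 and 19.6 CPM in the Hyperloaded pair, against 9.09 and 5.90 CPM in the Control pair. NR4A2 lay closer in part, with 457.9 and 165.3 CPM against 113.0 and 63.1 CPM. EGR3, which had few counts, was at 1.02 and 1.63 CPM against 0.473 and 0.203 CPM. The part of cell makeup in the size of the differences was not tested.

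**Figure D4:**
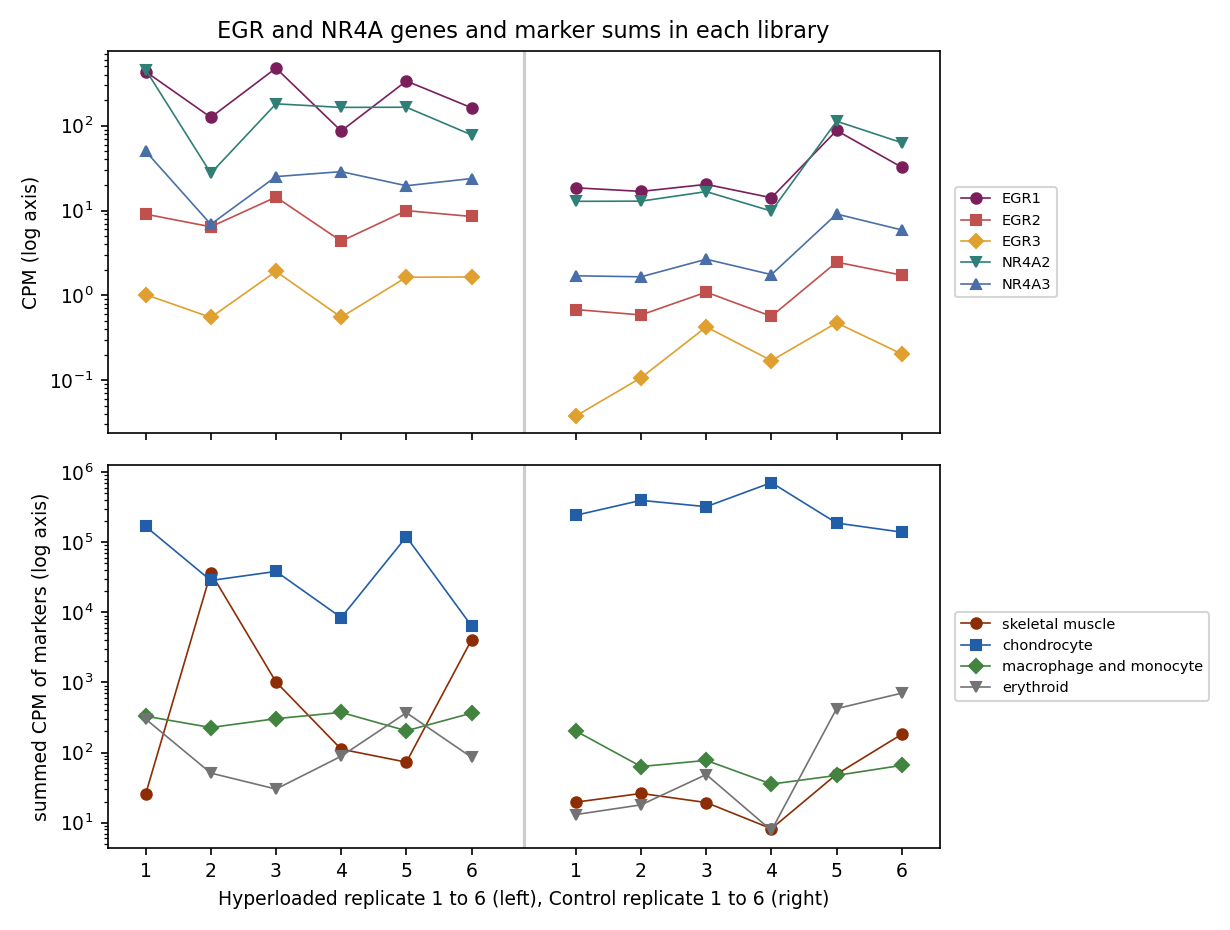
Levels of the 5 genes (top) and summed levels of marker lists (bottom) in CPM on log axes, for Hyperloaded replicates 1 to 6 (left) and Control replicates 1 to 6 (right), with lines joining values of a gene or list within a group. Muscle markers peak in Hyperloaded replicate 2, where NR4A2 and NR4A3 are at their lowest for the group, and Control replicates 5 and 6 combine high EGR and NR4A levels with high erythroid sums.

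Most of the other immediate-early genes that were tested rose as well. Of 42 listed genes outside the EGR and NR4A families, 23 were tested, 16 rose, 7 did not pass and 0 fell by edgeR (17 higher and 0 lower at an unadjusted p under 0.05, and 17 higher by DESeq2), where 10.8% of all tested genes rose and 8.44% fell, with a median log2 fold-change of 1.40 against 0.0048 over all tested genes. JUNB, an AP-1 subunit, had 131.0 to 355.6 CPM in Hyperloaded libraries, against 20.9 to 66.0 CPM in Control libraries (log2 fold-change 2.51 ± 0.35 SE, adjusted p = 0.00330 by edgeR). ZFP36, which hastens the decay of AU-rich messages, rose by 2.24 ± 0.31 (SE) on the log2 scale, and MYC by 2.09 ± 0.31. IER5, a small growth response protein, rose by 1.33 ± 0.21. In 10 of the 23, every Hyperloaded library was above every Control, as in 3.81% of all tested genes. The count of 16 fell to 10 without the 3 libraries whose raw reads were not given and to 4 without Hyperloaded replicates 2, 3 and 6, when 167 genes were called in all.

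**Figure D5:**
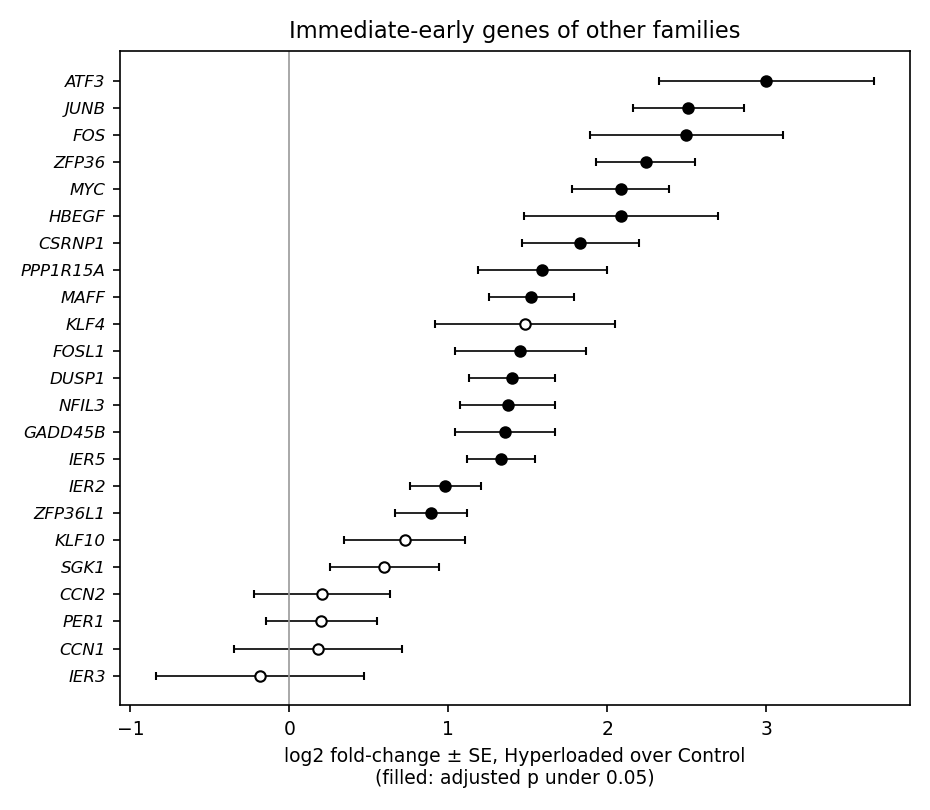
The log2 fold-change of Hyperloaded over Control with its SE for 23 immediate-early genes outside the EGR and NR4A families, ordered by size and filled where the adjusted p was under 0.05. The 16 filled points all lie above 0.

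Pathways upstream of the families were counted list by list, and 10.8% of all tested genes rose and 8.44% fell by the same test. These are levels of message, and the activity of the proteins was not measured. Of 9 listed genes, SRF and its cofactors, 4 were tested and SRF alone rose (37.9 CPM in Hyperloaded and 23.8 CPM in Control tissue, log2 fold-change 0.67 ± 0.19 SE, adjusted p = 0.0301 by edgeR), a call kept in 12 of 22 alternative fits. Its partners ELK4, ELK3 and MRTFA had log2 fold-changes of 0.58, -0.05 and -0.13 and did not pass. In the ERK MAP kinase cascade, with 23 genes listed, 1 of 15 tested genes rose, the ribosomal S6 kinase RPS6KA1 (1.22 ± 0.25 SE, adjusted p = 0.0104 by edgeR). At an unadjusted p under 0.05, 7 of the 15 were higher and 0 lower, and between 1 and 4 of the 15 were called with 1 library left out, 4 by DESeq2 and 0 without Hyperloaded replicates 2, 3 and 6. The feedback inhibitors SPRY2 and DUSP4 were at 1.11 (adjusted p = 0.0502 by edgeR) and 0.98 (adjusted p = 0.0603), and BRAF, a kinase at the top of the cascade, was at 0.46.

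Of 12 listed genes of the CREB family and its coactivators 8 were tested, and CREB itself was not among the 8. By edgeR 0 of 8 passed, where 10.8% of all tested genes rose and 8.44% fell, and 1 was higher at an unadjusted p under 0.05. The coactivators CRTC2 and CRTC1 were at 0.26 and -0.27 on the log2 scale, the protein kinase A subunit PRKACA was at 0.38 and the cyclic AMP phosphodiesterase PDE4D was at 0.30. DESeq2, limma voom and the fit without Hyperloaded replicate 5 called 1 of the 8 each, and scaling by library size only called 2. Of 14 listed genes of the MEF2, calcineurin and NFAT group, which drives NR4A genes in muscle and lymphocytes, 11 were tested and RCAN1 rose. RCAN1, a calcineurin inhibitor that is itself switched on by calcineurin, averaged 911.5 CPM in Hyperloaded tissue and 250.4 CPM in Control tissue (log2 fold-change 1.86 ± 0.47 SE, adjusted p = 0.0197 by edgeR). MEF2B, PPP3CB and MEF2D were at -0.89, 0.52 and 0.29 and did not pass.

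Among partners and brakes of the factors there was 1 rise and 1 fall by edgeR, where 10.8% of all tested genes rose and 8.44% fell. The rise was 1 of 4 tested EGR corepressors and relatives. With no count minimum, 0 of 5 of that list passed. The corepressors NAB1 and NAB2, which bind EGR proteins, had log2 fold-changes of 0.27 and -0.21 and did not pass. SP1 and SP3 bind the same GC-rich DNA as EGR1, and SP3 rose by 0.37 ± 0.12 (SE, adjusted p = 0.0401 by edgeR), a call kept in 8 of 22 alternative fits, while SP1 was at 0.17. RXRB, a retinoid X receptor of the group that pairs with NR4A1 and NR4A2, was the single tested gene of its list and fell by 0.36 on the log2 scale (31.4 CPM in Hyperloaded and 40.2 CPM in Control tissue, adjusted p = 0.0310 by edgeR). The fall of RXRB was kept in 12 of 22 alternative fits.

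Known targets of EGR1 in vessels, wounds and tendon rose in part. Of 17 tested, 7 rose and 0 fell by edgeR (9 higher and 0 lower at an unadjusted p under 0.05, and 9 called by DESeq2), where 10.8% of all genes rose, and the median log2 fold-change was 0.73. PLAU, the urokinase plasminogen activator, had 42.1 to 185.5 CPM in Hyperloaded libraries, against 12.6 to 26.9 CPM in Control libraries (log2 fold-change 2.22 ± 0.38 SE, adjusted p = 0.00594 by edgeR). ICAM1, a leukocyte adhesion molecule, rose by 1.68 ± 0.27 (SE). The growth factor PDGFA rose by 1.24 ± 0.30 and the receptor EGFR by 0.74 ± 0.17. Without Hyperloaded replicates 2, 3 and 6, 1 of the 17 was called.

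Target genes of the other members were sparse. Of the EGR2-dependent myelin genes, 4 were in the table and 0 reached the count minimum, with sums of 0.240 to 2.42 CPM in Hyperloaded libraries and 0.0566 to 0.284 CPM in Control libraries. In the fit with no count minimum, 2 of the 4 rose and 0 fell, where 7.53% of 19019 genes rose and 4.85% fell. Schwann cell markers summed to between 0.516 and 7.55 CPM in Hyperloaded libraries and between 0.284 and 1.55 CPM in Control libraries, and 4 of 6 rose and 0 fell in that fit. Their part in the level of EGR2 was not tested. Of the lymphocyte targets of EGR2 and EGR3, 2 were tested. CBLB, a ubiquitin ligase of lymphocyte tolerance, rose by 0.98 ± 0.28 (SE, adjusted p = 0.0307 by edgeR), a call kept in 16 of 22 alternative fits with values down to 0.41, and DGKZ, a diacylglycerol kinase, was at -0.38 and did not pass. T and NK cell markers summed to between 8.83 and 14.4 CPM in Hyperloaded libraries and between 1.27 and 5.85 CPM in Control libraries, with GZMA at 0 in every library, and their part in the lymphocyte list was not tested.

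The genes most like the families in how they varied within the groups were ranked over the 12 libraries, after removing the group means, by Pearson's r with the mean profile of the 4 tested members. Among 6659 named genes, the 6 nearest were ATXN7 (r = 0.95), a subunit of the SAGA complex, LMNA (0.95), which encodes the nuclear lamins A and C, DCUN1D3 (0.94), a factor of cullin neddylation, ANXA1 (0.93), annexin A1, NFATC1 (0.93), a calcineurin-dependent factor, and the endotoxin receptor TLR4 (0.93). The 4 members themselves had r of 0.89 to 0.94 with their own mean profile. Of the 6 genes, DCUN1D3 rose (0.64 ± 0.21 SE, adjusted p = 0.0493 by edgeR). The other 5 did not pass, with log2 fold-changes between 0.13 for TLR4 and 1.02 for ANXA1.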

How the data were processed

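Ventral annulus fibrosus was sequenced as poly(A) libraries of the TruSeq v2 kit, which does not mark strand, so reads of overlapping antisense genes cannot be told apart. The authors made reads with CASAVA, mapped them to Sscrofa11.1 in JMP Genomics allowing 2 mismatches, and deposited unscaled expected counts for each gene. The values are not whole, so reads that match more than 1 gene may be split between genes, which could blur close relatives. The table has 12 columns of libraries, all mapped to a sample by label. Of the values of a library, 23.2 to 28.5% were whole numbers.

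Expected counts were rounded and tested with edgeR 4.0.16 in R 4.3.3 (glmQLFit, glmQLFTest, TMM, group as the only term) over genes that reached 10 counts throughout the libraries of either group, the filter in the methods of the study. An adjusted p under 0.05 was a call, standard errors came from the F statistic, and log2 CPM used a prior count of 2. The study tested TPM by analysis of variance, which the table does not hold. Alternatives were upper quartile, RLE and library size scaling, no minimum, filterByExpr, DESeq2 1.42.0, limma 3.58.1 (voom with quality weights), a term for replicate number, and libraries left out. Symbols came from a gene name table (52.7% of identifiers). Positions, lengths and sequences are of RefSeq for Sscrofa11.1, matched by symbol and read with pysam 0.24.0 in Python 3.11.15. Permutation tests used scipy 1.17.1 and plots matplotlib 3.10.9.

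The members, the gene lists and the libraries left out were chosen with earlier results of these data known. Named genes are the members, up to 4 tested genes with the smallest p in each list, and the 6 genes of at least 5 CPM nearest to the members' within-group profile. For EGR4 and NR4A1 no fit was run. The edgeR script was tested on simulated counts. P-values cover only the spread among libraries, some of which share a pig, and no term for the pig was fitted. Results on single genes of the myelin list are not reported here.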

Additional observations from a re-analysis of the deposited data

Results flagged for a closer look

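Single libraries stood apart from the other 5 of their group by Dixon's ratio, taken on CPM without logs. Chance gives about 1 in 20 groups only where values are normally distributed, which was not tested for CPM. The ratio was not taken on log2 CPM, where high values stand less far apart. EGR1 in Control replicate 5 was 87.9 CPM, with the next Control at 32.4 CPM. NR4A2 in Hyperloaded replicate 1 was 457.9 CPM, with the next Hyperloaded library at 181.3 CPM. The skeletal muscle marker sum was 36720 CPM in Hyperloaded replicate 2 (next 4067 CPM) and 182.5 CPM in Control replicate 6 (next 49.1 CPM). The macrophage and monocyte sum was 202.8 CPM in Control replicate 1 (next 77.4 CPM). The endothelium sum was 733.0 CPM in Hyperloaded replicate 3 (next 533.3 CPM). Without Control replicate 5, the log2 fold-change of EGR1 was 3.73 and stayed past the threshold.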

How the results depend on the processing

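EGR1, EGR2 and NR4A3 kept their direction and their call in all 22 alternative fits. With 1 library left out in turn, the log2 fold-change ran from 2.86 to 3.73 for EGR1, 2.73 to 3.24 for EGR2, 2.16 to 2.70 for EGR3, 1.70 to 2.96 for NR4A2 and 2.49 to 3.24 for NR4A3. NR4A2 also passed by library size only (2.40), DESeq2 (2.24) and limma voom (3.11). EGR3 did not pass without the 3 libraries with no raw reads (2.24) or without Hyperloaded replicates 2, 3 and 6 (2.24). The difference in the ratio EGR1 over EGR3 was 0.76 with a prior count of 0.5, 1.40 without Hyperloaded replicates 2, 3 and 6, and 0.98 to 1.39 with 1 library left out. For EGR2 over EGR3 it was 0.60, 0.90 and 0.79 to 1.07. The calls on both ratios were lost in most of these settings. The median correlation of the members over Controls was 0.74 without the 2 libraries farthest from the median of the first gene of each pair. Cause was not tested for any of these.

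Of all tested genes 2422 were called, 56.1% of them higher. The count was 3653 by limma voom (49.9% higher), 3348 by DESeq2, 167 without Hyperloaded replicates 2, 3 and 6 (76.0% higher) and 1249 to 3257 with 1 library left out, lowest without Control replicate 2. Replicates whose omission moved it by over 1.5 times were Hyperloaded 6 (1325) and Control 2, 3 (1479) and 4 (1371). Scaling by upper quartile gave 44.3% higher and by library size only 86.3%, when the median of all genes was 0.29.

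Libraries of the same number deviated together in 3 of 6 cases (replicates 3, 5 and 6, with r of 0.22, 0.18 and 0.26, each correlating best with its own number) and not in the other 3 (r between -0.12 and 0.03), so the numbers were not taken to pair pigs. With a replicate block, 1744 genes were called, and the log2 fold-change was 3.13 for EGR1, 3.00 for EGR2, 2.47 for EGR3, 2.39 for NR4A2 and 2.86 for NR4A3, with no call of these 5 changed.

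Among listed genes the sign turned for NAB2 (0.063), MRTFA (0.12), ELK3 (0.21) and CRTC1 (0.037) by library size only, for MRTFA without Hyperloaded replicates 2, 3 and 6 (0.10), and for ELK3 without Hyperloaded replicate 2 (0.019) and without Control replicate 3 (0.0050), out of a range of -0.17 to 0.019 with 1 library left out. None of these was called in any fit.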
